A study of Mus musculus with 248 samples.

Results

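The genes described here are 10 transcription factor genes of blood progenitors and leukemia: Erg, Fli1, Myb, Myc, Mycn, Mecom, Hlf, Etv6, Ikzf1 and Lyl1. They were found by matching the Ensembl identifiers of 2 deposited expression tables to these symbols. Of the 10, 9 had a row in both tables, out of 18508 genes in the training table and 13607 genes in the validation table. Mycn was not analysed here. The genes were read in blood RNA of a mouse model of acute myeloid leukemia and of its littermate controls. The CM mice (genotype CHW in the labels) carried Mx1-Cre and a conditional Cbfb-MYH11 allele (Cbfb+/56M). This allele makes the fusion of the RUNX partner CBFB with the myosin MYH11 that marks leukemia with inversion 16 in people. The Ctrl mice (CW, HW or WT in the labels) were littermates that were wild-type or had only one of the Cbfb allele and the Cre. All mice were C57BL/6 of both sexes, and all were given poly(I:C), 14 mg/kg every other day for 7 doses, at 4 to 8 weeks of age. Poly(I:C) switches on the Mx1 promoter, so Cre acts in blood-forming cells but also in other interferon-responsive tissues. Blood was drawn before induction (T0) and monthly afterwards, and the labels define leukemia by a share of cKit+ blasts over 20%. The training cohort held 55 libraries of 7 CM mice and 77 libraries of 7 Ctrl mice. The validation cohort held 68 libraries of 13 CM mice and 48 libraries of 8 Ctrl mice, drawn monthly, at stated weeks (WK) or in leukemia (L). Each library came from the blood mononuclear cells (PBMC in the labels) of 1 mouse, and each replicate is a separate mouse. In Ctrl libraries at T0, B cell genes summed to 3263 to 3700 CPM and T cell genes to 377 to 556 CPM in the training cohort, and neutrophil genes, of cells that a mononuclear preparation largely leaves out, to 2314 to 5713 CPM.

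These genes code for proteins that set which genes a blood cell reads. ERG, FLI1 and ETV6 are ETS factors, which bind DNA through a shared ETS domain. ERG and FLI1, neighbours in sequence, sit with the helix-loop-helix factor LYL1, with TAL1, LMO2, GATA2 and RUNX1 on the same enhancers of blood stem cells, and ERG is also active in endothelium and megakaryocytes. HLF is a PAR bZIP factor marking long-lived stem cells, MYB keeps progenitors dividing, and MYC drives growth and ribosome production. MECOM codes for EVI1, a zinc finger factor of stem cells, and IKZF1 (Ikaros) is a zinc finger factor needed for lymphocytes. In inversion 16 leukemia the fusion protein disturbs RUNX1, which shares targets with ERG and FLI1.

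The promoters of 3 genes on which the results below turn are shown from the RefSeq promoter table (GRCm38.p6), as the 250 bases before a start, 5′ to 3′ on the gene's strand. Of the 9 genes, 7 had an entry, with 11 entries in all. Capitals mark a GATA motif (AGATAA, or TTATCT on the other strand) or an E-box (CANNTG). Of the 3 Erg starts, the one shown is the only one whose window held any searched motif.
Erg, chr16:95459349-95459598, minus strand: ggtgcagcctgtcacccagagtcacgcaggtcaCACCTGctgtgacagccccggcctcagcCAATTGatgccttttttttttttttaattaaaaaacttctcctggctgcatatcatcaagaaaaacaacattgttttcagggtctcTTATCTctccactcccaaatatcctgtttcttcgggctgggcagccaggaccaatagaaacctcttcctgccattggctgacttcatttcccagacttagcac
Hlf, chr11:90390918-90391167, minus strand: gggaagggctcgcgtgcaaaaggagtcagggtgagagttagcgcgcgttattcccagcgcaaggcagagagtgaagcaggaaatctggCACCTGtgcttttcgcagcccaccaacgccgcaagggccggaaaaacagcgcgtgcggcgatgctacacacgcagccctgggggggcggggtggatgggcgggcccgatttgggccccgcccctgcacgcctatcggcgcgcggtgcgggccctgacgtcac
Myb, chr10:21160985-21161234, minus strand: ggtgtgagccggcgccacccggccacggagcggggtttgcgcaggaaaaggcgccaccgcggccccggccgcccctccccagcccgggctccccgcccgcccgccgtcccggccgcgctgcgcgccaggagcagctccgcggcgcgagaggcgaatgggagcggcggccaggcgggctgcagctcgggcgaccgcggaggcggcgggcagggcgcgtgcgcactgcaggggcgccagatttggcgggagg
The Erg window held 1 GATA motif and 2 E-boxes, the Hlf window held 1 E-box, and the Myb window, at 81.2% G and C, held none. The RUNX motif TGTGGT and the ETS motif GGAAGT, searched on both strands, were in none of the 11 entries. Over 32851 promoters of that length, 14.0% held the RUNX motif, 19.7% the ETS motif, 9.99% the GATA motif and 66.2% an E-box. A match or its lack describes only these letters in these windows.

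In GRCm38.p6, Erg (ENSMUSG00000040732) lies at chr16:95359169-95586600, Fli1 (ENSMUSG00000016087) at chr9:32422204-32543432 and Etv6 (ENSMUSG00000030199) at chr6:134035700-134270158. Hlf (ENSMUSG00000003949) lies at chr11:90336535-90390917, Ikzf1 (ENSMUSG00000018654) at chr11:11684962-11772930 and Myb (ENSMUSG00000019982) at chr10:21124930-21160984. Myc (ENSMUSG00000022346) lies at chr15:61985341-61990361, Lyl1 (ENSMUSG00000034041) at chr8:84701423-84704716 and Mecom (ENSMUSG00000027684) at chr3:29951296-30509759. Each value is a count over the gene's exons. Erg, Hlf, Myb and Myc overlap no other annotated gene, Lyl1 overlaps Nfix, Mecom overlaps Mecomos and predicted genes, and Fli1, Etv6 and Ikzf1 overlap predicted genes only.

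Values are log2 CPM, the log2 of a gene's reads relative to the reads of its library, as deposited. A gene with 0 reads sits at -6.52 in the training table and -6.30 in the validation table, because a prior of 0.25 reads was added. Depth ran from 16 to 36.3 M reads per training library (median 22.6 M) and from 8.68 to 34.4 M per validation library (median 19.5 M). In the validation cohort each month was a sequencing run of its own, and 38 libraries (T0, T1, L) were unstranded while the other 78 were stranded. Month and run therefore cannot be told apart there, and arms are compared within a month. CM mouse 2700 of the validation cohort went against its label: its 7 libraries held 0 to 19 reads of the knock-in's MYH11 row, against 68 to 1235 in the other 61 CM libraries. CM mouse 2731, labelled female, held 11 to 1322 reads of the female-specific Xist in its 4 libraries, against 757 to 46260 in the other 50 libraries labelled female. Its T0 library held 643 reads of the Y-linked gene Ddx3y, and its later libraries 1 to 3. Among the other libraries, 3 labelled female held 100 or more Ddx3y reads, up to 322, and 2 labelled male held 940 and 1103 Xist reads. Tests are two-sided limma tests over all genes of the table with Benjamini-Hochberg adjustment, and a gene is called at an adjusted p under 0.05. Fold changes are log2 with their standard error (SE), and group values are means ± SD.

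Before induction, the genes fell into a rare and an abundant group. Per kilobase of exon, Fli1 and Ikzf1 stood highest among CM training mice at T0, at 6.54 ± 0.23 and 6.56 ± 0.15 log2 CPM per kb (n = 7), within each other's spread. Lyl1 followed at 5.68 ± 0.20, then Myc at 3.92 ± 0.38 and Etv6 at 3.87 ± 0.45, which did not differ beyond their spread, and Myb at 2.37 ± 0.50. Hlf at -2.97 ± 0.76 and Erg at -3.95 ± 0.60 were rare, and Mecom was rarest at -6.41 ± 2.04. In training Ctrl mice the per-kilobase order was the same apart from Fli1, at 6.61 ± 0.03, which lay above Ikzf1, at 6.48 ± 0.10. The order differed in validation CM mice at T0 (n = 10). There Erg, at -2.83 ± 0.47, lay above Hlf, at -4.86 ± 1.81, and Etv6, at 3.34 ± 0.23, above Myc, at 2.71 ± 0.26. In log2 CPM, Erg ran from -3.21 through a median of -1.98 to -1.59 in the 7 training CM libraries. In the 7 training Ctrl libraries it ran from -2.78 through -1.96 to -1.15, and these ranges overlap throughout. All 7 CM libraries together held 41 Erg reads and the 7 Ctrl libraries 44. Hlf ran from -1.64 through -0.15 to 0.77 in CM mice, with 156 reads, and from -1.46 through -0.78 to -0.02 in Ctrl mice, with 96 reads. None of the 9 genes was called between the arms at T0 in either cohort by limma, 0 had an unadjusted p under 0.05 (9.27% of all genes in training and 1.53% in validation mice), and limma-voom on the recovered reads also called 0. The background over all genes was 0.00540% for training mice and 0% for validation mice.

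At month 1, Erg and Hlf were higher in CM than in Ctrl mice of both cohorts while the other 7 genes were not called. In the training cohort Erg ran from -0.87 through a median of 1.07 to 2.12 log2 CPM in the 7 CM libraries, against -2.38 through -2.02 to -0.98 in the 7 Ctrl libraries. Every CM library lay above every Ctrl library. Erg averaged 0.69 ± 0.99 in CM mice and -1.83 ± 0.56 in Ctrl mice (n = 7 each), a log2 fold change of 2.40 ± 0.43 (SE) with an adjusted p of 0.00465 from limma. The reads behind it were few, 335 over the CM libraries and 51 over the Ctrl libraries. In bulk blood, more cells that hold a transcript and more transcript per cell cannot be told apart. Hlf ran from -0.99 through 2.42 to 4.31 in CM libraries, against -1.91 through -0.94 to -0.30 in Ctrl libraries, and 6 of 7 CM libraries lay above every Ctrl library. The exception was CM mouse 3368, at -0.99. The Hlf fold change was 2.69 ± 0.60 with an adjusted p of 0.0189, and it lost the threshold when CM mouse 3370 or Ctrl mouse 3349 or 3350 was left out (adjusted p 0.0579 to 0.0863). With mouse as a replicate block over all months, Hlf was still called and Erg was not (2.18, adjusted p 0.185), and with the library group added neither was (Erg 2.05, adjusted p 0.267, and Hlf 2.54, adjusted p 0.0607). With 2 of 9 called higher, the genes stood beside a background of 5.02% of all genes called in this comparison, 3.68% higher and 1.34% lower.

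The other month 1 values were small beside these. Myc, at 5.70 ± 0.46 in CM mice and 5.24 ± 0.33 in Ctrl mice, had a fold change of 0.30 ± 0.17 (adjusted p 0.287). It passed at 0.51 (adjusted p 0.0215) when libraries were scaled by median ratios, which moved the median of all genes from -0.18 to 0.02. Myb was at 4.45 ± 0.64 in CM mice and 4.00 ± 0.44 in Ctrl mice, with 4 of 7 CM libraries above every Ctrl library. Fli1 was at 7.78 ± 0.29 in CM mice and 8.15 ± 0.24 in Ctrl mice, and Lyl1 at 6.19 ± 0.35 and 6.68 ± 0.30, with adjusted p of 0.180 and 0.132. Mecom held 166 reads over the CM libraries and 17 over the Ctrl libraries, with 1 CM library and 3 Ctrl libraries at 0 reads. Its fold change of 1.90 was not called (adjusted p 0.329), and 4 of 7 CM libraries lay above every Ctrl library. Kit, the receptor by which the labels define the blasts, was called at 1.87 ± 0.51 (adjusted p 0.0456). Its CM libraries ran from 3.14 to 4.62 and its Ctrl libraries from 1.07 to 4.95. The Ctrl library at 4.95 was mouse 3342, and without it Erg (2.54, adjusted p 0.00302) and Hlf (2.67, adjusted p 0.0233) were still called.

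**Figure D1:**
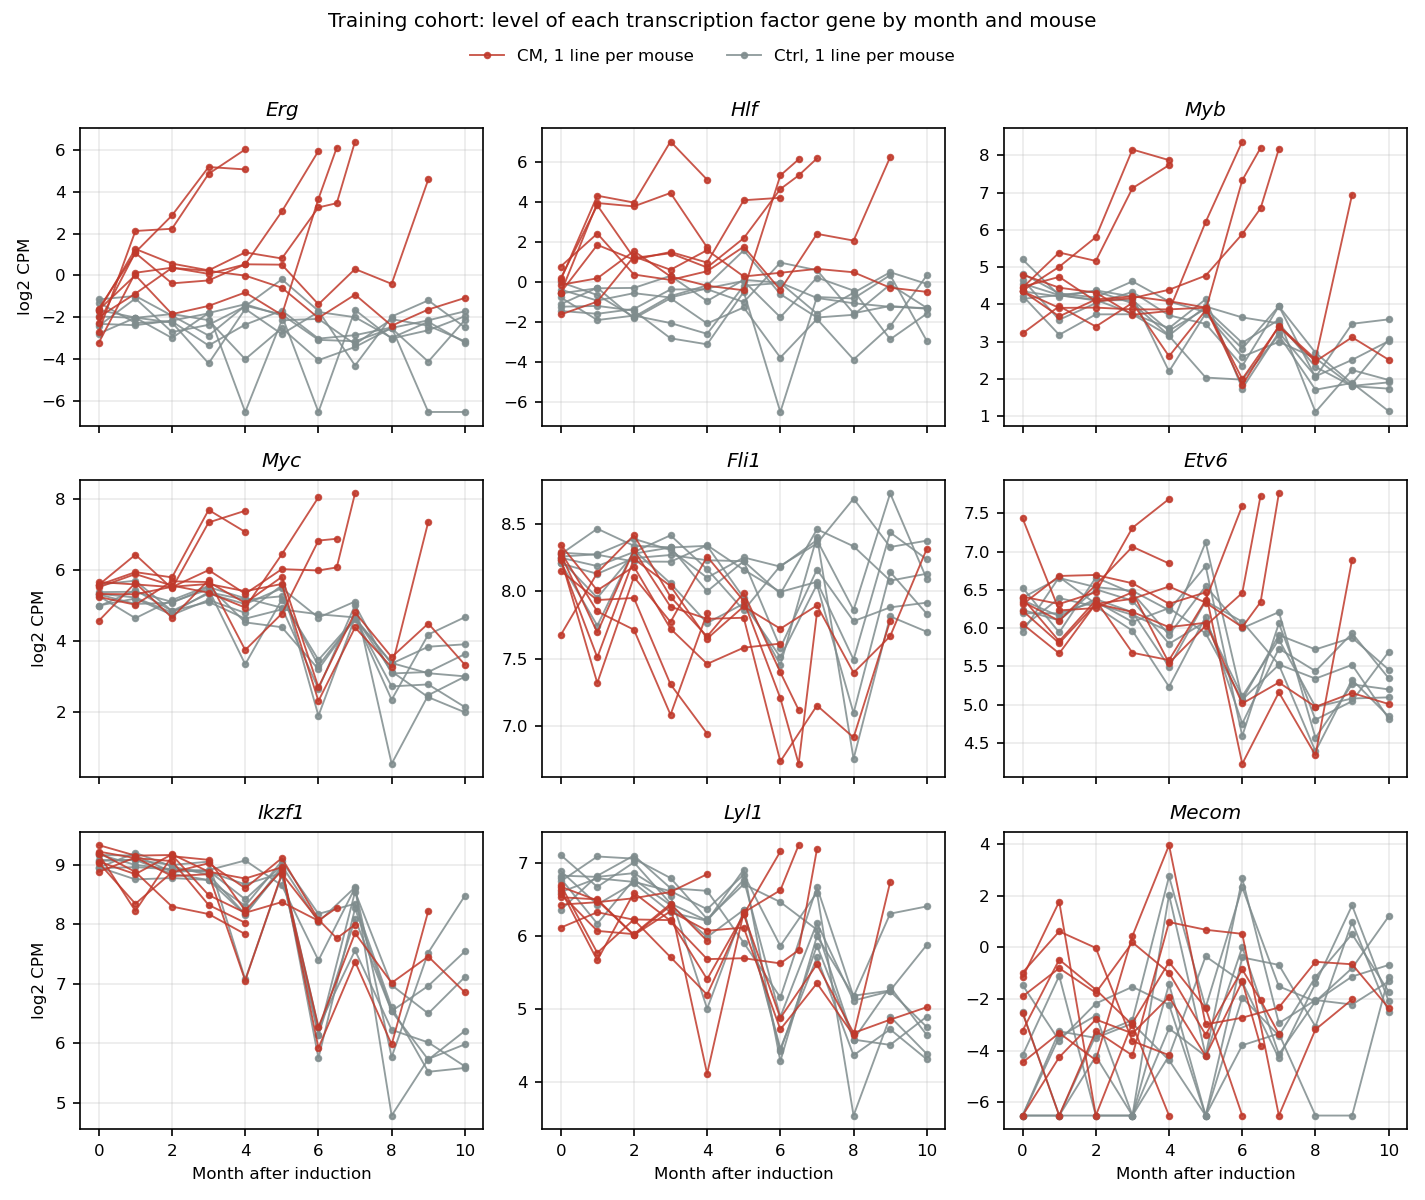
Level of each of the 9 genes (log2 CPM, y axis) by month after induction (x axis) in the training cohort, with 1 red line per CM mouse and 1 grey line per Ctrl mouse and a point per library. All 7 CM libraries lie above the Ctrl libraries for Erg at month 1, and 6 of 7 at month 2, 3 of 5 at month 5 and 4 of 5 at month 6, while Myb and Myc climb late and mouse by mouse.

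In validation mice Erg and Hlf were the 2 called at month 1. Erg ran from -2.82 through a median of 1.19 to 2.37 log2 CPM in 10 CM libraries, against -1.61 through -1.17 to -0.71 in 6 Ctrl libraries. CM libraries lay above every Ctrl library in 8 of 10 mice. The exceptions were mouse 2685, at -2.82 and below every Ctrl library, and mouse 2700, at -1.01. Erg had a fold change of 1.91 ± 0.64 with an adjusted p of 0.0360. Hlf ran from -1.58 through 2.49 to 3.92 in CM libraries, against -1.58 through -0.78 to -0.61 in Ctrl libraries, and 9 of 10 CM libraries lay above every Ctrl library. Its fold change was 2.74 ± 0.66 with an adjusted p of 0.00989. The background was 28.5% of all genes called, 7.95% higher and 20.6% lower. Without mice 2700 and 2731, Erg was at 2.04 (adjusted p 0.0345) and Hlf at 2.84 (adjusted p 0.0125). Mecom was not called, at 1.59 (adjusted p 0.0909), and stayed so in 14 of the 16 fits that leave out 1 mouse. It was called without CM mouse 2709 (adjusted p 0.0436) or Ctrl mouse 2702 (adjusted p 0.0457). The Erg call is thin: it held in 5 of the 16 fits that leave out 1 mouse, with adjusted p up to 0.0773 in the others. It was lost with mouse as a replicate block (adjusted p 0.130), and limma-voom on the recovered reads called neither Erg (adjusted p 0.113) nor Hlf (0.0781). Kit separated the arms fully here, from 1.94 to 3.83 in CM libraries and from 0.81 to 1.37 in Ctrl libraries.

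Markers of other blood cells moved with these calls. In the training cohort at month 1, the summed level of 6 platelet and megakaryocyte genes ran from 1928 through a median of 2459 to 5247 CPM in CM libraries, against 997 through 1301 to 3019 CPM in Ctrl libraries, and all 6 genes were called higher. The 6 red cell genes ran from 1906 to 19915 CPM in CM libraries, against 397 to 1516 CPM in Ctrl libraries. Of 5 endothelial genes, a cell type that also uses Erg, Tek (5.01), Egfl7 (2.82), Kdr (1.59) and Esam (1.12) were called higher, and Cdh5, the cadherin of endothelium, was not called, at -0.68 in CM libraries and -0.06 in Ctrl libraries. The endothelial sum was 35.5 to 74.8 CPM in CM and 16.7 to 28.3 CPM in Ctrl libraries. In the validation cohort the platelet sum was 1340 through a median of 3628 to 8292 CPM in CM libraries, against 1043 through 1557 to 4392 CPM in Ctrl libraries. Tek was called there too, at 4.55. Of 5 mast cell and basophil genes, Cpa3, Ms4a2 and Fcer1a were called higher in both cohorts and Mcpt8 in the validation cohort, while Hdc was not called. Their sum was 76.8 to 240 CPM in CM and 63.4 to 848 CPM in Ctrl training libraries. The part of these cells in the Erg and Hlf values was not tested.

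At month 2 in the training cohort, Erg and Hlf were called again and Lyl1 was lower in CM than in Ctrl mice. Hlf ran from 0.37 through 1.27 to 3.97 log2 CPM in CM libraries, against -1.83 through -1.44 to -0.30 in Ctrl libraries, without overlap. Its fold change of 2.79 ± 0.45 had an adjusted p of 0.00183. Erg, at 0.59 ± 1.57 in CM mice and -2.29 ± 0.41 in Ctrl mice, had a fold change of 2.54 ± 0.52 (adjusted p 0.00708), and 6 of 7 CM libraries lay above every Ctrl library. The remaining CM library, mouse 3334 at -1.85, lay just under the highest Ctrl library at -1.84. Lyl1 ran from 6.01 through 6.22 to 6.59 in CM libraries, against 6.73 through 6.86 to 7.10 in Ctrl libraries, also without overlap. It was lower by 0.69 ± 0.12 (adjusted p 0.00235), while in validation mice at month 2 it was not called (-0.17, adjusted p 0.812). The training call was lost with mouse as a replicate block over months (adjusted p 0.218), as was that of Erg (2.55, adjusted p 0.0994). With the library group added, Hlf was lost too (adjusted p 0.107). Reads of Lyl1 and of the overlapping Nfix may be mixed, since no source used here says whether training reads were counted by strand. The background was 11.7% of all genes called, 5.46% higher and 6.25% lower. Myc missed the threshold at 0.47 ± 0.15 (adjusted p 0.0553) and passed it under median-ratio scaling (0.57, adjusted p 0.0122), without a sex term (adjusted p 0.0272) and without CM mouse 3334 (adjusted p 0.00198). Markers of other blood cells moved at month 2 as well: all 6 T cell genes were called higher and 4 of 5 B cell genes lower, and 3 of 6 red cell, 3 of 6 platelet and 3 of 5 endothelial genes higher. The T cell sum ran from 289 to 851 CPM in CM libraries, against 206 to 295 CPM in Ctrl libraries, and the B cell sum from 1301 to 2712 CPM, against 3207 to 3865 CPM. Their part in these calls was not tested.

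From month 3 on the CM mice spread out and limma called no gene of the 9 within any single month. The background was as low, 0.632% of all genes at month 3, 0.00540% at month 4, 0% at month 5 and 0.0162% at month 6. At an unadjusted p under 0.05, 5 of the 9 passed at month 3 (15.1% of all genes), 2 at month 4 (5.57%), 4 at month 5 (8.55%) and 3 at month 6 (8.97%), and limma-voom also called 0. Values still differed by mouse. At month 3, Erg ran from -1.46 through 0.22 to 5.17 log2 CPM in 7 CM libraries, against -4.20 through -2.36 to -1.79 in 7 Ctrl libraries. The groups did not overlap, and the fold change was 3.64 ± 0.97 (adjusted p 0.108). Fli1 lay lower without overlap, from 7.09 to 8.04 in CM libraries and from 8.06 to 8.42 in Ctrl libraries (fold change -0.51 ± 0.14, adjusted p 0.106). With mouse as a replicate block over months, Erg was called at month 3 (3.58, adjusted p 0.00682), month 4 (4.12, adjusted p 0.00116) and month 6 (4.97, adjusted p 8.67e-05). This fit takes a single spread per gene over all its months and both arms, and so does not follow the wider late CM spread. At month 6 that fit also called Hlf (4.42), Myb (2.44), Myc (1.70) and Fli1, which fell by 0.51, and at months 3 and 4 it also called Hlf (2.82 and 2.45) and Fli1 (-0.58 and -0.46). With the library group added to the block, only Erg of the 9 was called at month 3 (3.65, adjusted p 0.0423) and month 4 (4.24, adjusted p 0.0127). Erg, Hlf, Myb and Myc were called at month 6. With the library group, 267 of all genes were called at month 4 and 2861 at month 6. By then 4 of 5 CM libraries lay above every Ctrl library for Erg, from -2.03 through 3.24 to 5.94, against -6.52 through -3.02 to -1.69.

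In the validation cohort month 2 gave no call by limma among the 9 genes, with a background of 0.147%, and 0 by limma-voom. At an unadjusted p under 0.05, 4 of the 9 passed, against 10.1% of all genes. With mouse as a replicate block over months, Erg (3.25, adjusted p 0.00780), Hlf (3.50, adjusted p 0.00697) and Myb (1.58, adjusted p 0.0315) were called, beside 714 of all 13607 genes. Hlf nonetheless separated the arms, from 0.47 through 2.58 to 6.19 in 10 CM libraries, against -1.35 through -0.82 to 0.09 in 6 Ctrl libraries. Its fold change was 3.5 ± 0.69 with an adjusted p of 0.0677, and 3.31 with an adjusted p of 0.0157 without mice 2700 and 2731. Leaving out mouse 2700, 2709 or 2731 alone also brought Hlf past the threshold (adjusted p 0.0155 to 0.0361). Erg lay above every Ctrl library in 9 of 10 CM libraries, up to 5.89 in mouse 2731, and the exception was mouse 2700 at -1.46. Myb, at 5.20 ± 1.38 in CM mice and 3.62 ± 0.37 in Ctrl mice, also lay above every Ctrl library in 9 of 10. At months 3 to 6 limma called 0 of 9, with a background of 0%, and limma-voom also called 0. At an unadjusted p under 0.05, 4 of the 9 passed at month 3 (16.3% of all genes), 1 at month 4 (2.71%), 2 at month 5 (8.59%) and 0 at month 6 (3.45%). With mouse as a replicate block, Erg (3.41, adjusted p 0.00617), Hlf (3.06), Myb (1.82), Myc (0.81) and Etv6 (0.56, adjusted p 0.0463) were called at month 3, beside 2665 of all genes. At month 6 only 4 CM mice were left, and Erg ran from -1.35 to 1.68 in them, against -2.97 to -0.70 in 6 Ctrl libraries. A Ctrl library stood apart at month 6: mouse 2702 had Hlf at 6.16, while the CM libraries ran from -1.09 to 2.59.

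**Figure D2:**
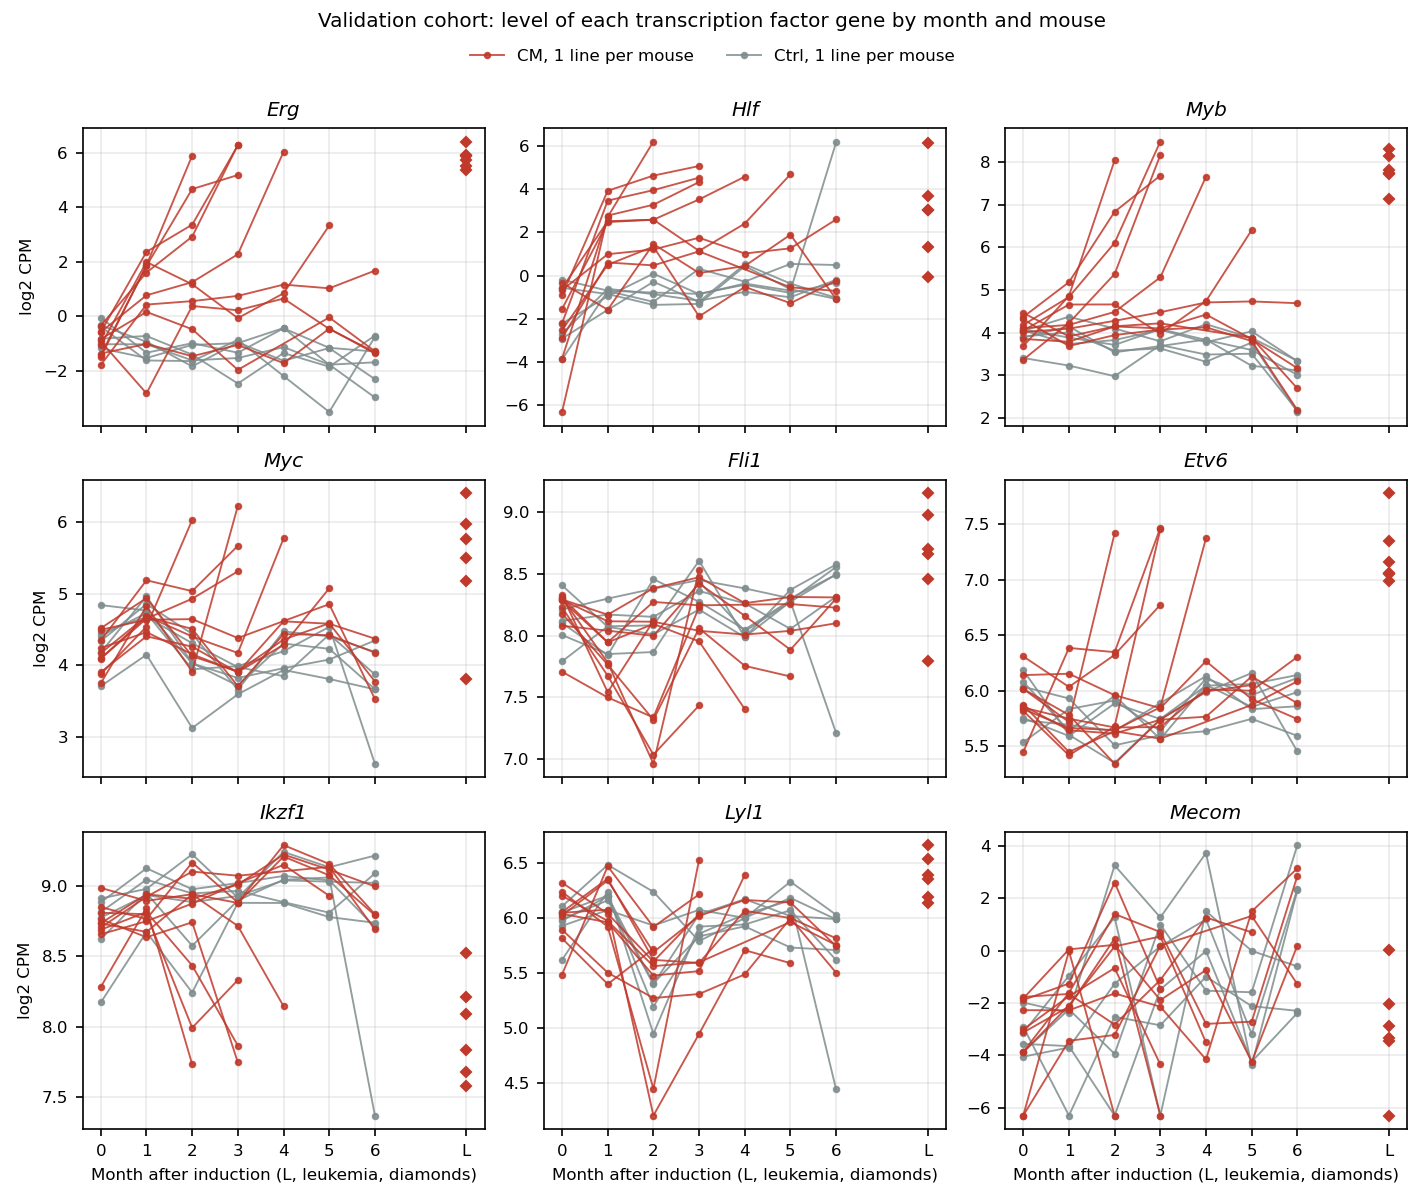
Level of each of the 9 genes (log2 CPM, y axis) by month after induction in the validation cohort (x axis, with L for leukemia libraries as diamonds), with 1 red line per CM mouse and 1 grey line per Ctrl mouse. Hlf lies above the Ctrl libraries in 10 of 10 CM mice at month 2, and the 6 L libraries have Erg between 5.38 and 6.41.

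Each mouse was also followed on its own, against the highest Ctrl library of the same cohort and month. Erg first passed that level at month 1 in 7 of 7 training CM mice, and in the validation cohort at month 1 in 8 of 10 mice, at month 2 in 1 and at month 5 in 1. Hlf first passed it at month 1 in 6 of 7 and 9 of 10 mice, and at month 2 in the others. Myb passed it later: in 4 of 7 training mice at month 1, in 1 at month 4, in 1 at month 6 and in 1 at month 9. In the validation cohort Myb did so in 4 of 10 mice at month 1, in 5 at month 2 and in 1 at no month. Myc did so at month 1 in 3 of 7 training mice, month 2 in 3 and month 3 in 1, and at month 1 in 1 of 10 validation mice, month 2 in 4, month 3 in 2, month 4 in 1 and month 5 in 2. With few Ctrl libraries a month, some passes come from spread alone. At T0, when no gene of the 9 was called, Hlf lay above every Ctrl library in 3 of 7 training CM mice, Erg in 0 of 7, and Myb in 5 of 10 validation CM mice.

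The courses differed between mice. Mouse 3338 had Erg at -2.69, 2.12, 2.23, 4.85 and 6.01 log2 CPM from T0 to T4, a climb at every draw. Mouse 3336 had Erg at 1.26 at T1, between 0.24 and 1.10 at T2 to T5, 3.24 at T6, 3.45 at the draw labelled T6p5 and 6.39 at T7. Mouse 3370 moved between -1.38 and 1.07 from T1 to T8 before reaching 4.58 at T9. In mouse 3368, followed to T10, Erg was highest at 0.36 at T2 and ended at -1.08. Myb in mouse 3336 stayed between 4.08 and 4.77 from T0 to T5 and then reached 5.89, 6.58 and 8.18 in its last 3 libraries. Myb in mouse 3370 was at 2.53 at T8 and 6.95 at T9.

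At stated weeks, 3 CM and 2 Ctrl mice of the validation cohort were drawn in 1 run, too few for a test, so their values stand as a description. In mouse 3130, Erg was at 3.02, 5.84 and 6.11 log2 CPM at WK20, WK24 and WK25, and Hlf at 4.80, 5.63 and 5.38. In mouse 3131, Erg was at 0.73, 4.80 and 5.42 at WK20, WK24 and WK28, and Myb at 3.62, 7.98 and 8.23. In mouse 3200, Erg was at 2.17, 4.86 and 5.50 at WK10, WK14 and WK18. Erg and Myb were highest in the last draw of all 3 mice. Hlf was highest 1 draw earlier in each, in mouse 3131 at 4.37, against 3.31 in the last draw. In mouse 3200 these draws were nearly level, at 5.84 and 5.80, and in mouse 3130 they were at 5.63 and 5.38. The Ctrl mice drawn at weeks had Erg between -2.55 and -0.89.

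In the last library of each training CM mouse, set against its own T0, Erg, Hlf, Myb and Myc had risen and Ikzf1 had fallen. The last libraries were drawn between T4 and T10. Erg was at 6.01 in mouse 3338, 5.06 in 3357, 5.94 in 3341, 6.10 in 3334, 6.39 in 3336, 4.58 in 3370 and -1.08 in 3368. The first 6 of these lie close together and mouse 3368 lies far below, though above its T0 value of -1.98. The group averaged 4.71 ± 2.63 in the last libraries and -2.15 ± 0.61 at T0 (n = 7 each), with a fold change of 6.86 ± 0.83 (adjusted p 0.000126), higher in 7 of 7 mice. Hlf was at 5.11, 1.72, 4.21, 6.13, 6.18, 6.25 and -0.50 in the same order of mice, with a fold change of 4.42 ± 0.61 (adjusted p 0.000231). Hlf was thus low in mouse 3357, whose Erg and Myb were high, and higher than at T0 in 7 of 7 mice. Myb was at 7.74, 7.88, 8.38, 8.20, 8.18, 6.95 and 2.51, against 3.22 to 4.80 at T0, with a fold change of 2.83 ± 0.63 (adjusted p 0.00355). Myb rose in 6 of 7 mice, all but 3368.

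Myc, at 6.94 ± 1.66 in the last libraries and 5.36 ± 0.38 at T0, rose by 1.58 ± 0.48 (adjusted p 0.0180), in 6 of 7 mice. Without mouse 3336 or 3341 it missed the threshold (adjusted p 0.0521 and 0.0578). Ikzf1, at 7.90 ± 0.48 and 9.13 ± 0.15, fell by 1.23 ± 0.24 (adjusted p 0.00159), and no last library overlapped a T0 library. Set against the change of Ctrl mice to T6, Ikzf1 was not called (difference 0.93, adjusted p 0.0823). Fli1 (-0.54 ± 0.22), Etv6 (0.62 ± 0.31), Lyl1 (0.07 ± 0.32) and Mecom (-1.14 ± 0.95) were not called. With 5 of 9 called, the genes stood beside a background of 46% of all genes, 10.1% of all genes higher and 35.9% lower. The count of 5 in either direction is near that background, and the 4 higher calls are to be read against 10.1%. The median was 0.62 over the 9 genes and -0.57 over all genes in this comparison. Under median-ratio scaling that of all genes was -0.11, and Etv6 (1.09, adjusted p 0.00309) and Lyl1 (0.54, adjusted p 0.0402) were called as well. Ikzf1 was then at -0.76 (adjusted p 0.00227) and Fli1 at -0.07. Without mouse 3368, Erg was at 7.86, Hlf at 4.97, Myb at 3.61 and Myc at 2.16, and Etv6 (0.90, adjusted p 0.00430) and Fli1 (-0.64, adjusted p 0.00714) were called too.

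Leukemia libraries of the validation cohort gave 7 calls of 9. Erg was at 6.41 in mouse 2684, 5.50 in 2690, 5.75 in 2708, 5.92 in 2718, 5.86 in 2719 and 5.38 in 2731, all far above the T0 range of -1.49 to -0.33 of the same 6 mice. Its fold change was 6.71 ± 0.25 (adjusted p 6.48e-07), and the 6 values span little more than 1 log2 unit. Myb, from 7.13 to 8.31 in L libraries and from 3.37 to 4.37 at T0, rose by 3.85 ± 0.21 (adjusted p 3.30e-06). Hlf was much less even: -0.09, 1.32, 3.70, 3.04, 3.05 and 6.11 in the same order of mice, against -6.30 to -0.58 at T0. Its fold change was 5.42 ± 1.0 (adjusted p 0.00169), with 35 reads in all at T0. Etv6, the ETS factor whose gene is often rearranged in leukemia, rose by 1.32 ± 0.18 (adjusted p 0.000328), from 6.99 to 7.78 in L libraries and from 5.45 to 6.31 at T0, without overlap. Myc rose by 1.36 ± 0.34 (adjusted p 0.00735), in 5 of 6 mice. The exception was mouse 2718, at 3.81 in L. Lyl1 rose by 0.39 ± 0.13 (adjusted p 0.0324) in 6 of 6 mice, and stayed past the threshold in 2 of the 6 fits that leave out 1 mouse. Ikzf1 fell by 0.67 ± 0.19 (adjusted p 0.0137), in 5 of 6 mice.

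The background in that comparison was 64.5% of all genes, 31.4% higher and 33% lower, so that 7 of 9 is not far from the share of all genes called. The median was 1.32 over the 9 genes and -0.04 over all genes. Fli1 (0.45 ± 0.20, adjusted p 0.0732) and Mecom (0.34 ± 1.16) were not called, and without mouse 2684 Fli1 was (0.64, adjusted p 0.0101). By their labels, L and T0 libraries came from separate sequencing runs, so run and leukemia cannot be told apart. Kit rose by 8.84 ± 0.38, as a gene that the leukemia label itself uses. The mast cell and basophil sum was 5991 to 13940 CPM in L libraries, against 88.7 to 344 CPM at T0 over all 10 CM mice. The blast and progenitor sum was 772 to 3388 CPM in L and 46.1 to 76.7 CPM at T0, although within that list Flt3 and Cd33 fell. Cpa3 was at 11.25 in L and 1.81 at T0, and Ms4a2 at 11.06 and 3.39, while the platelet gene Pf4 fell by 4.70. In the training cohort the mast cell and basophil sum was 17.1 through a median of 2435 to 7092 CPM in the last libraries, against 39.3 through 66.7 to 642 CPM at T0. Their part in the rise of Erg, Hlf and Myb was not tested.

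**Figure D3:**
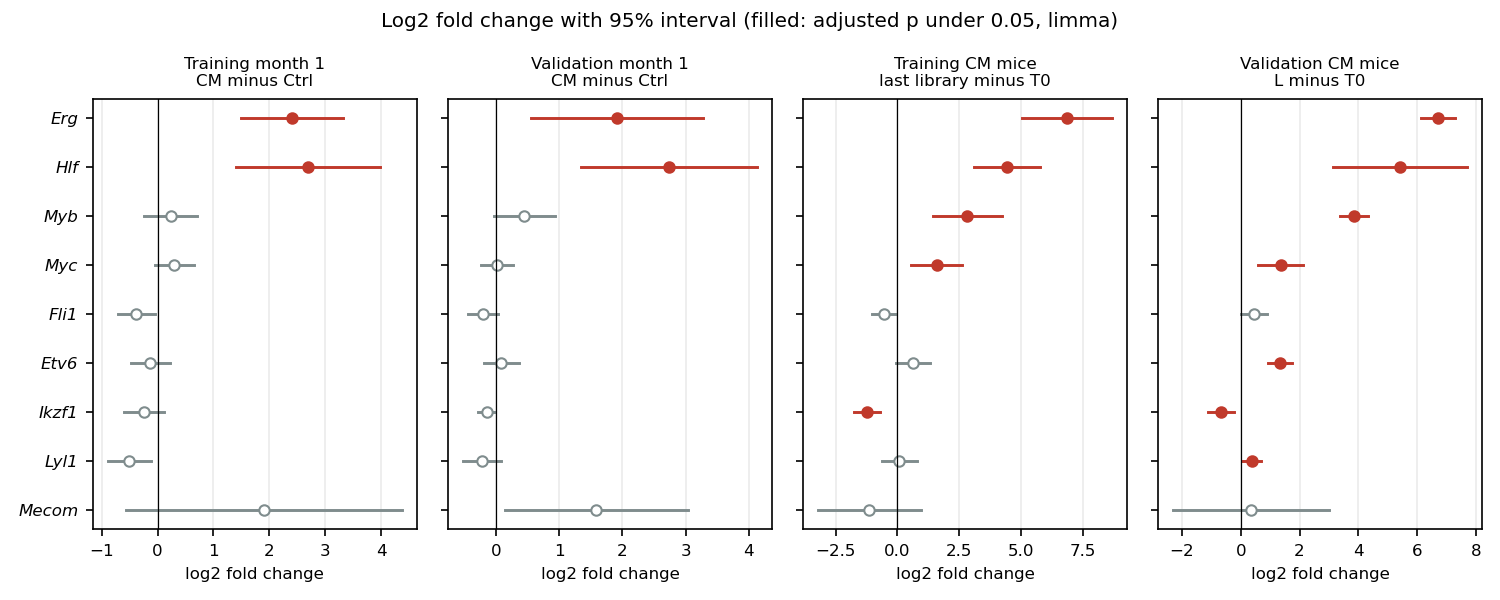
Log2 fold change of each gene (x axis) with its 95% interval in 4 comparisons: CM minus Ctrl at month 1 in both cohorts, and the last or leukemia library minus T0 in CM mice. Filled points have an adjusted p under 0.05 from limma. Erg and Hlf are filled in all 4 panels, and Myb and Myc in the 2 panels of late libraries.

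Hlf also differed from Erg in when it peaked. The highest Erg value of a mouse was in its last library in 5 of 7 training mice and 7 of 13 validation mice. For Hlf this was so in 4 of 7 and 1 of 13. Mouse 2684 had Hlf at 4.57 at T4 and -0.09 in L, while Erg was at 6.03 and 6.41. Mouse 2690 had Hlf at 4.32 at T3 and 1.32 in L. In the training cohort mouse 3338 had Hlf at 7.03 at T3 and 5.11 at T4, and mouse 3357 had 4.45 and 1.72. In the validation cohort L libraries were unstranded and T3 to T5 libraries stranded. The training libraries share 1 preparation, and the WK mice share 1 run. Whether timing differs between the genes beyond chance was not tested.

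The training cohort allowed the change over time to be compared between arms directly, as each CM mouse's last library minus its T0 against each Ctrl mouse's T6 minus its T0. The fit has sex as a covariate, so its difference is adjusted for sex and is not that of the means. Ctrl medians of some genes dipped at T6: Ikzf1 was at 8.93, 6.28 and 8.35 at T5, T6 and T7. In the same order Myc was at 5.17, 3.31 and 4.66 and Lyl1 at 6.71, 4.90 and 6.09. Erg, at -1.91, -3.02 and -3.14, also fell at T6 but had not come back at T7. The part of these falls at T6 in the differences was not tested. Erg changed by 6.86 ± 2.80 in CM mice and -1.23 ± 1.58 in Ctrl mice (n = 7 each), a difference of 7.51 ± 1.02 (SE, adjusted p 0.00045) without overlap. Myb changed by 2.83 ± 2.18 in CM mice and -1.98 ± 0.52 in Ctrl mice (difference 4.57, adjusted p 0.000973). Hlf changed by 4.42 ± 1.95 and -0.89 ± 2.53 (difference 5.20), Myc by 1.58 ± 1.58 and -1.85 ± 0.98 (difference 3.14), and Lyl1 by 0.07 ± 0.94 and -1.68 ± 0.93 (difference 1.63, adjusted p 0.0141). Etv6 differed by 1.41 (adjusted p 0.00890), but by 0.49 (adjusted p 0.127) under median-ratio scaling, where Lyl1 was at 0.70 (adjusted p 0.0424) and Fli1, at -0.06 on the deposited scale, was called lower (-0.99, adjusted p 0.0449). Under that scaling Erg (6.82), Hlf (4.53), Myb (3.64) and Myc (2.22) were still called. Ikzf1 was called under neither scaling, at 0.93 (adjusted p 0.0823) as deposited and 0.01 under median ratios. It was called higher in 1 of the 4 alternative settings, and stayed uncalled in 11 of the 14 fits that leave out 1 mouse. Mecom, a gene of few reads, differed by -5.70 ± 1.60 (adjusted p 0.0120), with 17 reads over the last CM libraries and 273 over the Ctrl libraries at T6. Without Ctrl mouse 3350 the Mecom difference was -4.42 (adjusted p 0.0696), and the count of calls was 4. The 7 of 9 called compare with 37.5% of all genes, 29.5% higher and 7.98% lower, and the median of all genes was 0.61.

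The Ctrl mice moved too. At T10 against T0, Ikzf1 (-2.40 ± 0.36), Myb (-2.22 ± 0.33), Myc (-2.07 ± 0.33), Lyl1 (-1.72 ± 0.32) and Etv6 (-1.03 ± 0.18) were called lower on the deposited scale and Mecom higher (3.71 ± 1.02, adjusted p 0.00782). The background was 83.1% of all genes called, 10.5% of all genes higher and 72.7% lower, and the median of all genes was -1.81. Hemoglobin genes took 4.22% through a median of 31.2% to 38.5% of reads at T10, against 0.473% through 1.02% to 1.78% at T0, and every level is a share of the same total. Under median-ratio scaling the median of all genes was -0.17, Myb (-0.52), Myc (-0.37) and Ikzf1 (-0.70) were still lower, and Lyl1 was at -0.02. Fli1 turned from -0.21 to 1.50 and Etv6 from -1.03 to 0.67 under that scaling, so that neither has a direction in Ctrl blood that holds under both. Erg (-1.08 and 0.33) and Hlf (-0.39 and 1.28) also changed sign, and neither was called on the deposited scale. Mecom was at 3.71 and 5.09 under the 2 scalings, with 84 reads over the T10 libraries and 13 over the T0 libraries. At T1 against T0, which brackets poly(I:C), limma called 0 of 9 genes in training Ctrl mice, with a background of 0%, 1 of 9 at an unadjusted p under 0.05 (6.22% of all genes) and 0 by limma-voom. In validation Ctrl mice Myc (0.37 ± 0.11), Lyl1 (0.28 ± 0.07) and Ikzf1 (0.26 ± 0.07) were called higher with a background of 33.3%, and all 3 calls were lost under median-ratio scaling and without the replicate block.

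**Figure D4:**
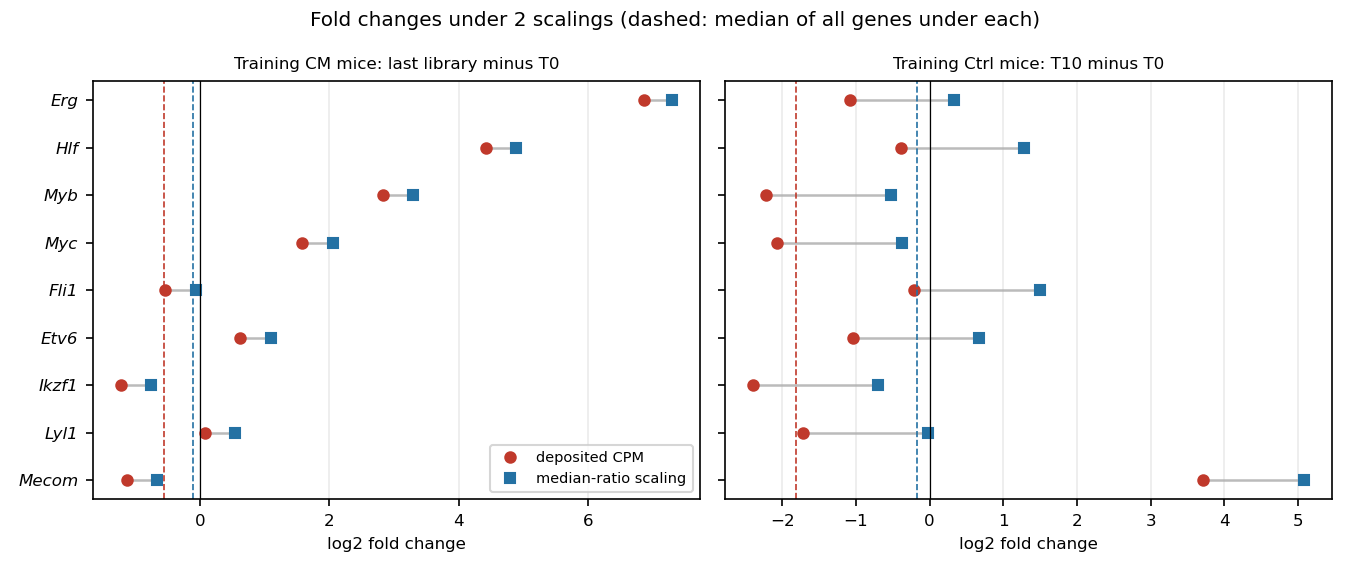
Log2 fold change of each gene (x axis) under the deposited scale (red circles) and under median-ratio scaling (blue squares), for the last library minus T0 in CM mice and T10 minus T0 in Ctrl mice, with dashed lines at the median of all genes. In Ctrl mice the scaling shifts every gene to the right and carries Fli1 from -0.21 to 1.50 and Etv6 from -1.03 to 0.67.

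Erg and Fli1, the closest relatives of the set, were compared as the difference of their log2 CPM within each library, which no scaling changes. At month 1 in the training cohort, Erg minus Fli1 was -7.09 ± 1.05 in CM mice and -9.97 ± 0.71 in Ctrl mice (n = 7 each), a difference of 2.88 that held in 7 of 7 CM libraries against the highest Ctrl library. The exact permutation test, two-sided, gave p = 0.000583, the smallest it can give, and 0.00233 after adjustment over 4 such tests. In validation mice at month 1 the values were -7.12 ± 1.80 in 10 CM libraries and -9.24 ± 0.41 in 6 Ctrl libraries (difference 2.12, exact p = 0.0172, adjusted 0.0230), with 8 of 10 CM libraries above every Ctrl library. In the last training libraries the value was -2.92 ± 2.93, against -10.32 ± 0.75 at T0 in the same 7 mice (difference 7.40, exact p = 0.0156, adjusted 0.0230, the smallest p it can give). In L libraries it was -2.82 ± 0.71, against -9.08 ± 0.64 at T0 in the same 6 mice (difference 6.25, exact p = 0.03125, adjusted 0.03125, the smallest p it can give). Fli1 still exceeded Erg in every one of these libraries.

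Other genes of the same complexes were counted from lists chosen for these factors. Of 8 partners of the stem cell complex, Tal1 (1.24 ± 0.20) and Meis1 (0.84 ± 0.21) were called higher at training month 1, beside 3.68% of all genes, and the list's median of 0.20 stood beside -0.18 for all genes. In validation mice at month 1, Gata2 (1.77), Tal1 (1.45), Meis1 (1.07) and Lmo2 (0.38) were called higher and Tcf3 (-0.42) lower, beside 7.95% of all genes higher and 20.6% lower. In L libraries 7 of 8 were higher, beside 31.4% of all genes, with Gata2 at 5.46, Tal1 at 4.07, Meis1 at 3.91 and Runx1 at 2.49, and Tcf3 lower by -0.50 (list median 2.09, all genes -0.04). In the last training libraries Gata2 (5.47), Tal1 (4.12) and Lmo2 (0.83) were the 3 called, beside 10.1% of all genes called higher. Tal1 and Gata2 are also used by mast cells, whose genes Cpa3 and Ms4a2 rose in the same libraries (8.16 and 7.55 in the last training libraries). The part of such cells was not tested.

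Among 11 other ETS factors none was called higher in the last training libraries and 6 were lower, with Spib, a B cell factor, at -3.26, Ets2 at -2.06, Elk3 at -1.92 and Ets1, abundant in lymphocytes, at -1.79. Of all genes, 10.1% were called higher and 35.9% lower there. In L libraries 5 were lower, again with Spib (-5.09) and Ets1 (-2.31), and Gabpa (0.67) and Elf1 (0.51) were higher, beside 33% of all genes lower and 31.4% higher. The B cell marker sum had a median of 332 CPM and reached 883 CPM in the last training libraries, against a median of 3099 CPM and a lowest value of 1075 CPM at T0. Ikzf3 (Aiolos), a lymphocyte relative of Ikzf1, was lower by -3.13 in the last training libraries and -3.92 in L, while Ikzf2 (Helios) was higher by 3.70 and 5.06. Ikzf2 was already higher at month 1, by 1.24 ± 0.23 (adjusted p 0.00633) in training and 1.33 ± 0.29 in validation mice.

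Of 12 MYC target genes, 4 were called higher in the last training libraries, Ldha (1.42), Tfrc (1.41), Odc1 (1.18) and Nme1 (1.05), and none lower (list median 0.66, all genes -0.57), beside 10.1% of all genes called higher. In L libraries 9 were higher, including Ccnd2 (1.92), Ldha (1.66), Cdk4 (1.17) and Nop58 (1.17), and Odc1 was lower by -1.14 (list median 0.87, all genes -0.04), beside 31.4% of all genes called higher. Odc1, the polyamine enzyme, thus had opposite calls in the 2 comparisons, a difference that was not tested. Of 9 partners and antagonists of MYC, Mxd3 (3.13) and Mxi1 (0.88) were higher and Mxd1 (-1.32) and Mga (-1.08) lower in the last training libraries, and none was higher and 2 were lower in L. Of 4 genes of the MYB family and its coactivators, Mybl2, a cell cycle relative, was higher by 3.18 and 3.08 in the late libraries of the 2 cohorts. The coactivator gene Ep300 was lower by -1.21 and -0.58. Of the relatives and partners of Hlf and Mecom, Ctbp2 was higher by 1.28 and 1.76.

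Over all training libraries, which share 14 mice and the growth of blasts, the gene most like Erg was Il1rl1, the receptor of interleukin 33 found on mast cells, with a Pearson r of 0.93. Dnajc6 (0.91) and Kit (0.90) followed. Il1rl1 was also nearest to Hlf (0.89), followed by Col5a1 (0.87) and Gna14 (0.87). Myb lay nearest to Mthfd1 (0.97), an enzyme of folate metabolism, Chaf1b (0.96), a subunit of a histone chaperone, and Pole (0.96), a DNA polymerase. Myc lay nearest to Ptpn7 (0.98), Ikzf1 to Parp4 (0.99), Lyl1 to Acd (0.96), Etv6 to Heatr5a (0.94), Mecom to Me1 (0.86) and Fli1 to Plekha2 (0.85). Among the 9 genes themselves Erg was nearest to Hlf (0.86) and Myb (0.79), and its r with Fli1 was -0.43. These are descriptions across libraries of shared mice and depth, with no test. Each level is a share of its library's reads, of which hemoglobin genes took a changing part. The part of this change in the r values was not tested.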

How the data were processed

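RNA of mouse peripheral blood was sequenced in 2 cohorts. The authors deposited log2 CPM values per gene and library, and the submitters' processing notes name GRCm38, STAR, Subread featureCounts and edgeR, without versions. Per the file headers, rows are Ensembl genes. The deposited file names state a filter of 0.5 CPM (training) or 5 CPM (validation) in 2 samples. The values carry no factor for RNA composition: with a prior of 0.25 reads, 100% of them returned whole reads within 0.01, so depth is known. Identifiers were matched to symbols for 16266 training and 12612 validation genes. Counting error alone limits genes of few reads (Erg, Hlf, Mecom at T0), and p-values measure spread between mice.

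Groups follow the labels. Comparisons were fitted with limma 3.58.1 (R 4.3.3) on the deposited log2 CPM of all genes with an intensity trend, and p-values were adjusted over each whole table. Arms were compared within a month, and in their change over time, with sex as a covariate. Time was compared within mice, since the same mouse gave both libraries. Erg minus Fli1 was tested by exact permutation (scipy 1.17.1). Mycn was not analysed here, so a planned Mycn to Myc comparison was not made, and 4 such tests remained. The steps were tested on simulated data. Alternatives were median-ratio scaling, a mean log2 CPM above 1, no sex term, limma-voom on the recovered reads, mouse as a replicate block over months, Ctrl T10 in place of T6, and leaving out each mouse; leaving out doubted mice was chosen after seeing the data. The genes named are the members, Kit, and members of the partner and marker lists that passed the threshold, up to 4 a list in each direction, and the most alike genes were ranked by Pearson r. The members and lists were chosen with earlier results of these data known. Promoters come from RefSeq (GRCm38.p6).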

Additional observations from a re-analysis of the deposited data

Results flagged for a closer look

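In the last training libraries, mouse 3368, the only mouse followed to T10, lay far below the other 6 for 5 genes. Erg was at -1.08 log2 CPM there, with the nearest other library at 4.58. Myb was at 2.51 (nearest 6.95), Myc at 3.34 (nearest 6.89), Etv6 at 5.01 (nearest 6.84) and Ikzf1 at 6.86 (nearest 7.83). The sums of mast cell and basophil genes and of blast genes were also lowest in this library, at 17.1 and 77.8 CPM, and the platelet sum was highest, at 15489 CPM.

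Among the 6 validation Ctrl libraries of month 1, mouse 2692 lay apart for Hlf, at -1.58 (nearest -0.95), and mouse 2705 for Myc, at 4.15 (nearest 4.68). Over 38 groups of 4 to 10 libraries, chance marks about 1 group in 20 in this way.

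The last library minus T0 in CM mice differed from T6 minus T0 in Ctrl mice for 7 genes by limma: Erg (7.51), Hlf (5.20), Myb (4.57), Myc (3.14), Lyl1 (1.63), Etv6 (1.41) and Mecom (-5.70). Of all genes, 37.5% were called in this comparison, 29.5% higher and 7.98% lower.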

How the results depend on the processing

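Single genes were followed in each comparison where some fit called them. Under all alternatives outside the fits that leave out 1 mouse, 293 of the 350 values kept their side of the threshold. Another 36 came to pass it, 19 came to miss it and 2 reversed. Direction was compared only where the reported or the alternative fit called the gene. The reversals were Fli1 (1.50) and Etv6 (0.67) at T10 in Ctrl mice under median-ratio scaling. The count of genes called at training month 1, 2 in the reported fit, was 0 with a mean log2 CPM above 1, a filter that removes Erg and Hlf. At validation month 1 it was 0 under that filter, 0 with limma-voom and 2 in the reported fit, and for the difference of changes it was 4 under that filter instead of 7.

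Arms hold different mice, so numbers pair nothing across arms, and the pairing of times is by mouse. With mouse as a replicate block over months, the count was 1 at training month 1, 1 at month 2 (reported 3), and 3, 3 and 5 at months 3, 4 and 6 (reported 0 each). With the library group added to the block it was 0, 0, 1, 1 and 4 at these months. In the validation cohort the block gave 1 at month 1, 3 at month 2 and 5 at month 3, beside 728, 714 and 2665 of all genes. Erg at training month 1 was then at 2.18 (adjusted p 0.185). Without the replicate block, and under median-ratio scaling, validation Ctrl T1 against T0 had 0 calls instead of 3. Without a sex term, training month 3 had 2, beside 356 of all genes. Without mice 2700 and 2731, validation month 2 had 1, beside 56 of all genes.

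Leaving out 1 mouse at a time, the count ran from 1 to 2 at training month 1, 3 to 4 at month 2, 1 to 3 at validation month 1 and 0 to 1 at month 2. It ran from 4 to 7 for the last training libraries, 6 to 7 for L, 0 to 2 for validation Ctrl T1, 4 to 8 for the difference of changes, was 6 throughout for Ctrl T10, and 0 throughout elsewhere. Erg minus Fli1 ran from 2.65 to 3.10 and 1.93 to 2.53 at month 1 of the training and validation cohorts, 6.99 to 8.50 for the last libraries and 6.01 to 6.53 for L, where 5 pairs cannot pass the threshold (smallest p 0.0625). Limma-voom was not run for the difference of changes, and no Mycn alternative was run. Erg rests on 41 and 44 reads per arm at training T0, so falls below that level were not detectable at this depth.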
